A study of Rattus norvegicus with 6 samples.

Results

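Receptor-type protein tyrosine phosphatases (RPTPs) were followed in oligodendrocyte progenitor cells (OPCs) of the rat, dividing cells from which myelin-forming oligodendrocytes arise. The set comprised 10 genes (Ptpra, Ptprd, Ptpre, Ptprf, Ptprg, Ptprj, Ptprk, Ptpro, Ptprr and Ptprs), of which 9 had a probe set with values among the 13949 genes measured. Ptprd had no probe set named for it alone and was not analysed here. Where a gene had several probe sets, the brightest by its mean across the 6 arrays was to be used, but each of the 9 genes had a single one, so no probe set was chosen by its level. The 10 names themselves were selected on gene family with fibrinogen and control values of these data already known, so counts over them are descriptions.

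RNA was measured on 6 Affymetrix arrays. In 3 samples the OPCs had been exposed to fibrinogen, a blood clotting protein that reaches nervous tissue where vessels leak, for 12 h, and 3 samples were unstimulated controls. All cells came from newborn rat pups and had recovered for 2 days in a proliferation medium with N2, B27, NT3 and PDGF, so both groups had been grown with these factors. The fibrinogen dose and the rat strain are not given in the sources used here, and the labels do not say whether replicates were separate cultures, so a p-value reflects the spread among the samples at hand, part or all of which may be technical.

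RPTPs span the cell membrane, with an outer part that often resembles a cell adhesion molecule and an inner part that removes phosphate from tyrosines. They oppose or tune tyrosine kinases. A well known example in the oligodendrocyte lineage is Ptprz1, a receptor for pleiotrophin. Other RPTPs bind the sugar chains of proteoglycans, contactins, or copies of themselves on a neighbouring cell. Ptpra is known to activate Src family kinases, and Fyn, one of these kinases, is needed for normal myelination. Ptprr carries a kinase interaction motif through which it binds and inactivates ERK-type MAP kinases.

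Levels are log2 values, 1 per probe set and array, and a difference of 1 is a 2-fold difference in signal. The median level over all genes was 6.88, 6.87 and 6.89 on the fibrinogen arrays and 6.88, 6.87 and 6.85 on the control arrays. Fibrinogen 2 stood apart from the other arrays, since genes deviated there from their group mean with an SD of 0.146, against 0.0862 to 0.114 on the rest. All 9 measured RPTP genes had mean levels above 5.51, the 95th percentile of 956 olfactory and vomeronasal receptor genes that served as a measure of background. A level cannot be set against that of another gene, since probe sets differ in response. In these bulk samples fewer cells of a type and less RNA per cell cannot be told apart.

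Of the 9 measured RPTP genes, 2 fell with fibrinogen (Ptprr and Ptpre), 1 rose (Ptprf) and 6 did not pass (limma, Benjamini-Hochberg adjusted p under 0.05 over all 13949 genes). Over all genes the same test called 432, or 3.10%, with 252 higher (1.81%) and 180 lower (1.29%). The median log2 change was -0.20 over the 9 genes and -0.0033 over all genes. Before adjustment, 2 RPTP genes were higher and 4 lower at p under 0.05, and 15.6% of all genes reached that p. The groups did not overlap for 2 RPTP genes that were higher with fibrinogen (10.7% of all genes) and 3 that were lower (10.6%). The calls for Ptprr and Ptpre were made in each of the 6 fits that left out 1 array. That for Ptprf was lost without fibrinogen 3, control 2 or control 3, which left 0 RPTP genes higher in those fits. The number of all genes called also moved, with 142, 263 and 167 higher and 89, 173 and 113 lower without fibrinogen 1, 2 and 3, and 119, 101 and 96 higher and 65, 55 and 55 lower without control 1, 2 and 3.

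**Figure D1:**
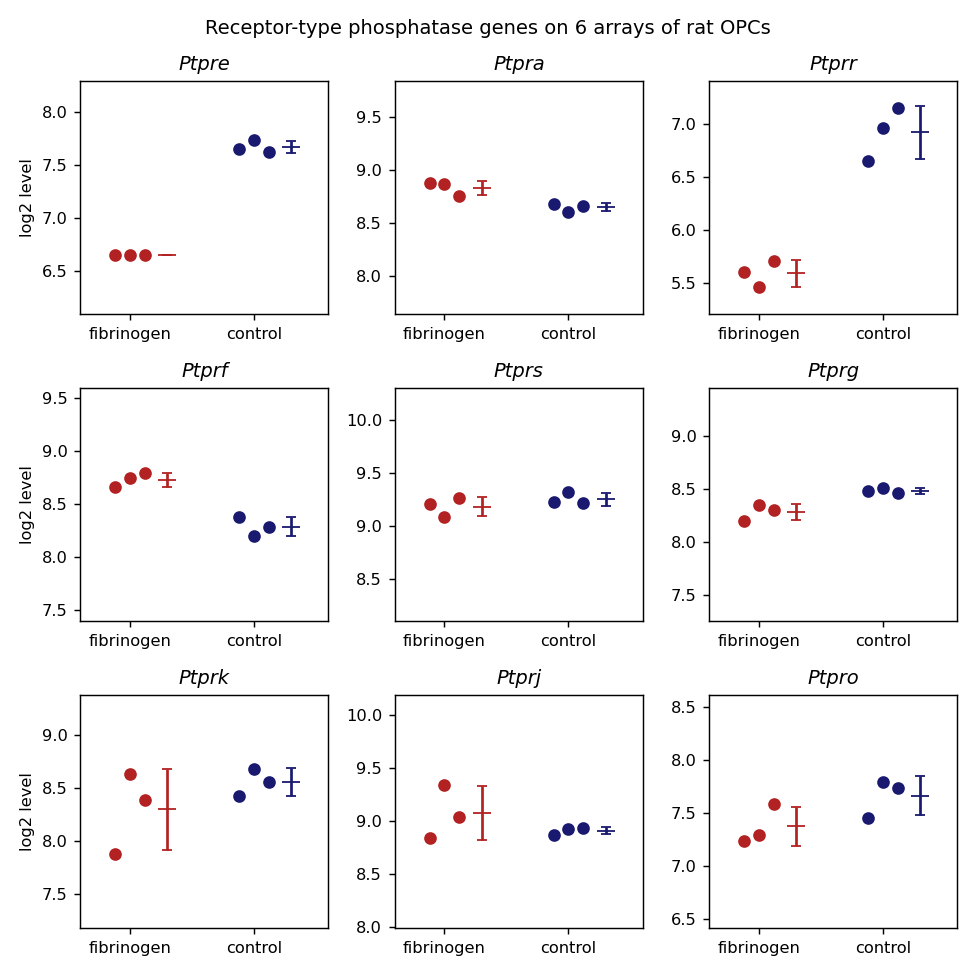
Log2 levels of the 9 measured RPTP genes on each array, with fibrinogen arrays in red and control arrays in dark blue, and the mean with SD (n = 3) beside each group; every panel spans the same range of log2 units. The fibrinogen and control points lie furthest apart for Ptprr and Ptpre, and fibrinogen points spread most for Ptprk and Ptprj.

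Ptprr fell most. It encodes an RPTP with a single catalytic domain and the kinase interaction motif, and is made in several forms, some of which lack the outer part. Its log2 level was 5.60, 5.46 and 5.71 on the fibrinogen arrays and 6.65, 6.96 and 7.15 on the control arrays. The groups did not overlap, and the lowest control array lay 0.94 above the highest fibrinogen array. The mean was 5.59 ± 0.13 with fibrinogen and 6.92 ± 0.25 in controls (SD, n = 3 each). The log2 change was -1.33 ± 0.13 (SE), with a 95% interval of -1.62 to -1.04 and an adjusted p of 0.00149 (limma), which is 2.51-fold lower. It ranked 4 among the falls of all genes, and without 1 array the change ran from -1.47 to -1.22. The fibrinogen mean was 0.08 above the receptor gene percentile, where signals are dim, and fibrinogen 2 lay below that percentile. The size of the Ptprr fall is therefore imprecise.

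Ptpre fell next. It is the closest relative of Ptpra, with a short outer part and 2 catalytic domains, and is also made as a form inside the cell that lacks the outer part. Its log2 level was 6.65 on each of the 3 fibrinogen arrays and 7.65, 7.73 and 7.62 on the control arrays. The groups did not overlap, and every fibrinogen array lay at least 0.97 below every control array. The log2 change was -1.02 ± 0.07 (SE), with a 95% interval of -1.17 to -0.86 and an adjusted p of 0.000294 (limma), or 2.02-fold lower, and it ranked 14 among the falls. Levels were rounded to 2 decimals in the deposited table, and 10 genes in all (0.0717%) had the same value on all 3 fibrinogen arrays. For controls this number was 31 (0.222%). The SE above is the moderated one, which borrows the spread of all genes, and does not rest on the 3 equal values alone. The probe sets of Ptpre and Ptprr give 1 value each, so their membrane-bound and shorter forms were not told apart.

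Ptpra did not follow its relative. Its log2 level was 8.87, 8.86 and 8.75 on the fibrinogen arrays and 8.68, 8.60 and 8.66 on the control arrays. Here the fibrinogen arrays were the higher ones, with no overlap, a pattern found in 21.3% of all genes counting either direction. The change of 0.18 ± 0.07 (SE), with a 95% interval of 0.02 to 0.34, did not pass (adjusted p = 0.259, limma). In the log2 difference of Ptpre minus Ptpra within an array, only a shift shared by all genes of that array cancels. It was -2.22, -2.21 and -2.10 with fibrinogen and -1.03, -0.87 and -1.04 in controls. That difference was 1.20 lower with fibrinogen, at p = 0.1 in a two-sided exact permutation test, the smallest p that 3 against 3 arrays can give. The pair was chosen after values were seen. Every fibrinogen array was lower than every control array for Ptpre and higher for Ptpra, which alone fixed this p.

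The DNA just before the start of transcription is shown for the pair that fell at least 2-fold and for Ptpra, the relative of Ptpre. Sequences are the 250 bases upstream of the start listed by RefSeq in assembly GRCr8, 5′ to 3′ on the gene's strand, and capitals mark the letters GGCGCC, an element that Smad proteins of the BMP pathway are known to bind. The Ptpre window is chr1:199773948-199774197 (+ strand), the Ptpra window chr3:138103045-138103294 (+ strand) and the Ptprr window chr7:53685989-53686238 (+ strand).
Ptpre: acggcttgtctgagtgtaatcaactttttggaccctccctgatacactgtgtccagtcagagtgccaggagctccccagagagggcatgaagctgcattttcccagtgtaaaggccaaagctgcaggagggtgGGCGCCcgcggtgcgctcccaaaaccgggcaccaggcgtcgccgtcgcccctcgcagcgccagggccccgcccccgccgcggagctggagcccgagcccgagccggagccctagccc
Ptpra: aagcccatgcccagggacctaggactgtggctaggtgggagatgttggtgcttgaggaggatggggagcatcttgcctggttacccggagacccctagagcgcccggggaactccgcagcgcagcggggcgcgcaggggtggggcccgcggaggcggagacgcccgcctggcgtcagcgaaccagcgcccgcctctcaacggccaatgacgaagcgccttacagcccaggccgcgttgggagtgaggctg
Ptprr: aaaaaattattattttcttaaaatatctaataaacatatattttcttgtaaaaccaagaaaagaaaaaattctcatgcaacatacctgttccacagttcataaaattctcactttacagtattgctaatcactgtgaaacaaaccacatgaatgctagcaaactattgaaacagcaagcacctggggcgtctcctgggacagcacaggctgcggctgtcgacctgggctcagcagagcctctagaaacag
The listed start of Ptprr lies inside the span of the gene, so another promoter of it may lie outside this window. The same limit holds for the Ptprf window and for 1 of the 2 Ptprd windows counted below. The genes that fell did not share base composition. The Ptpre window had 66.8% G and C with 19 CpG pairs, and the Ptpra window 69.2% with 22, whereas the Ptprr window had 38.0% with 3. Over 33465 RefSeq windows of this length the medians were 51.2% and 5. The letters GGCGCC, read on both strands, occurred once in the Ptpre window, in none of the other 9 windows listed for the RPTP genes (Ptprd has 2 of these, and Ptprk is not in the table), and in 8.70% of all windows. TGANTCA, the letters of an AP-1 site, occurred in 6.34% of all windows and in none of the 10. CANNTG, the letters of an E-box, occurred in 65.5% of all windows, with 2 matches in that of Ptprr and 0 in those of Ptpre and Ptpra. A match is no more than the presence of these letters.

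Ptprf, also called LAR, was the member that rose. It names the LAR group, whose outer parts carry immunoglobulin and fibronectin-like domains and which organise contacts between cells. Its log2 level was 8.66, 8.74 and 8.79 on the fibrinogen arrays and 8.38, 8.20 and 8.28 on the control arrays. The groups did not overlap, and the gap between the lowest fibrinogen and the highest control array was 0.28. The log2 change was 0.44 ± 0.08 (SE), with a 95% interval of 0.27 to 0.62 and an adjusted p of 0.0197 (limma), or 1.36-fold higher. Without fibrinogen 3, control 2 and control 3 the adjusted p was 0.0678, 0.102 and 0.0939, while the change stayed between 0.40 and 0.49 in all fits without 1 array.

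Ptprs is a LAR group member and is among the known receptors for chondroitin sulfate and heparan sulfate proteoglycans. Its log2 levels were 9.20, 9.08 and 9.26 with fibrinogen and 9.22, 9.32 and 9.21 in controls. The groups overlapped. The change of -0.07 ± 0.08 (SE) missed the threshold (adjusted p = 0.738, limma), and its 95% interval of -0.24 to 0.10 leaves room for a small fall or rise. The within-array difference of Ptprf minus Ptprs was -0.54, -0.34 and -0.47 with fibrinogen and -0.84, -1.12 and -0.93 in controls. It was 0.51 higher with fibrinogen and did not overlap (exact permutation p = 0.1, two-sided, the smallest possible). This pair too was chosen after values were seen.

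**Figure D2:**
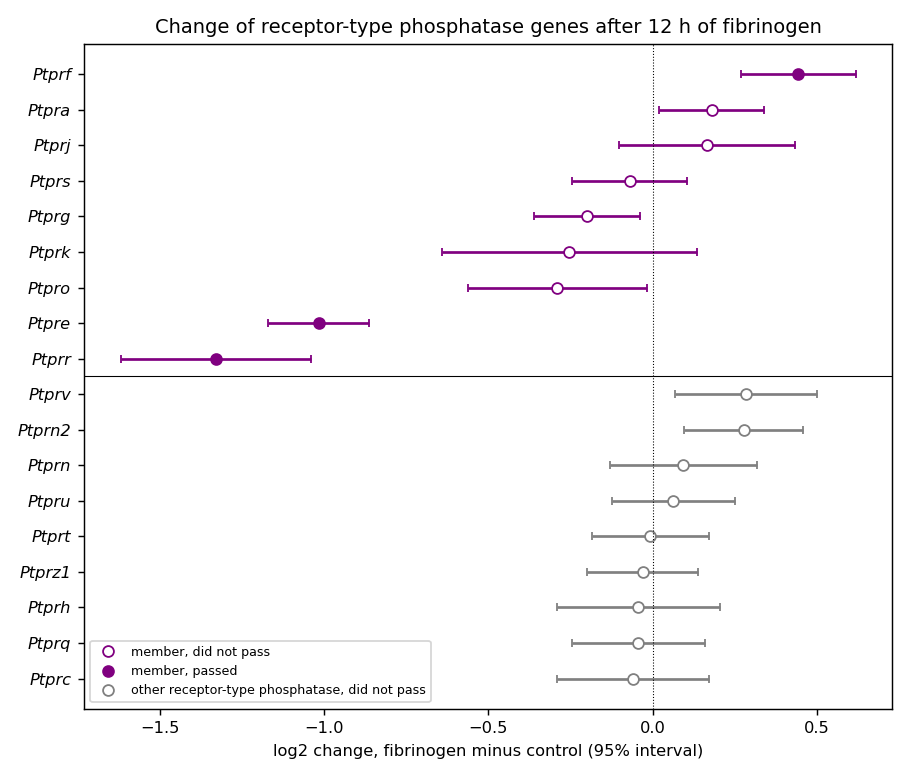
Log2 change (fibrinogen minus control, 3 arrays each) with its 95% interval for the 9 measured RPTP genes of the set (purple, top) and the 9 other measured RPTP genes (grey, bottom); filled points passed in limma. Ptprr, Ptpre and Ptprf are the filled points, and the intervals of Ptpra, Ptprg, Ptpro, Ptprv and Ptprn2 leave out 0 although none of these 5 genes passed after adjustment.

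Ptprg pairs with Ptprz1 in structure, as both carry a domain like carbonic anhydrase that binds contactins. Its log2 level was 8.20, 8.35 and 8.30 with fibrinogen and 8.48, 8.51 and 8.46 in controls. All fibrinogen arrays were lower, but the change of -0.20 ± 0.07 (SE; 95% interval -0.36 to -0.04) did not pass (adjusted p = 0.206, limma). Ptprz1, which is outside the set, had 11.86, 12.05 and 11.97 with fibrinogen and 12.00, 11.96 and 12.01 in controls. Its change of -0.03 had a 95% interval of -0.20 to 0.14.

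Ptprk belongs to the group with a MAM domain, whose members bind copies of themselves on neighbouring cells. It had 7.88, 8.63 and 8.39 with fibrinogen and 8.42, 8.68 and 8.56 in controls. The spread lay within the fibrinogen group, where fibrinogen 1 was low, at an SD of 0.38 against 0.13 in controls. The change of -0.25 ± 0.17 (SE) did not pass (adjusted p = 0.545, limma), and it was -0.04 without fibrinogen 1 and -0.42 without fibrinogen 2.

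Ptprj and Ptpro belong to a group with a single catalytic domain and an outer part of fibronectin-like repeats. Ptprj, which acts on several growth factor receptors and on Src kinases, had 8.84, 9.34 and 9.04 with fibrinogen and 8.87, 8.92 and 8.93 in controls. Fibrinogen 2 was high and fibrinogen 1 lay below every control, so the change of 0.17 ± 0.12 (SE, adjusted p = 0.570, limma) was 0.28 without fibrinogen 1 and 0.03 without fibrinogen 2. Ptpro, known from kidney podocytes and growing axons, had 7.24, 7.30 and 7.59 with fibrinogen and 7.46, 7.80 and 7.74 in controls. The groups overlapped through fibrinogen 3 and control 1. Its change of -0.29 ± 0.12 (SE; 95% interval -0.56 to -0.02) did not pass (adjusted p = 0.286, limma). The within-array difference of Ptpro minus Ptprj was -1.60, -2.04 and -1.45 with fibrinogen and -1.41, -1.12 and -1.19 in controls, 0.46 lower with fibrinogen (exact permutation p = 0.1, two-sided). Of the 3 pairs compared in this way each reached the smallest possible p, and the p adjusted over them was 0.1. All 3 pairs were chosen after values were seen, so these p-values are descriptions and no test of whether relatives differ.

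**Figure D3:**
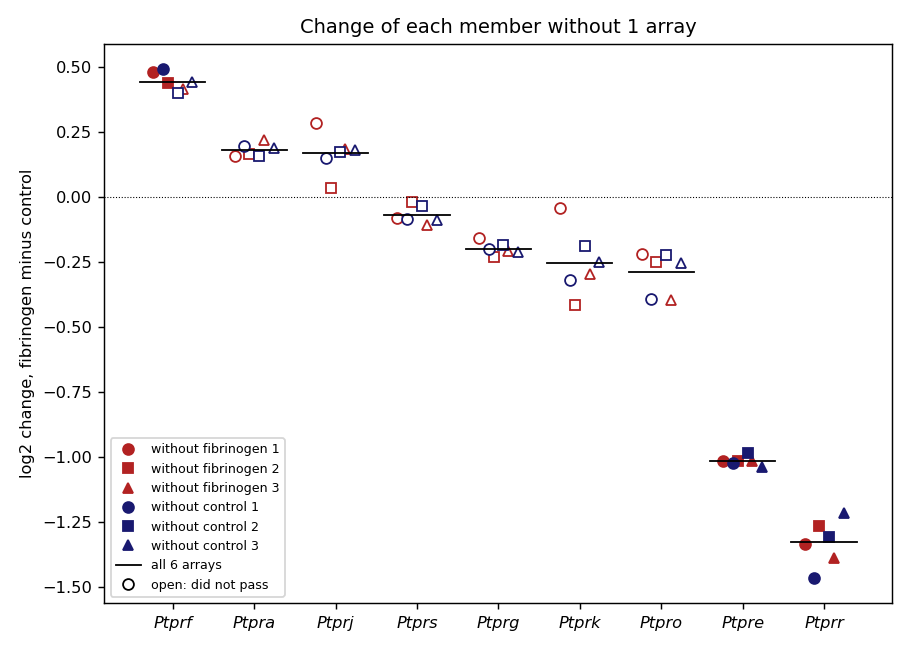
Log2 change of each of the 9 genes when 1 array is left out (red for a fibrinogen array, dark blue for a control array, shape for the replicate number), with the change over all 6 arrays as a black line; filled symbols passed in limma in that fit. Ptprr and Ptpre stay filled throughout, 3 of the Ptprf symbols are open, and the symbols of Ptprk and Ptprj spread most relative to their change.

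Of the 9 other RPTP genes with values 0 were called in limma, against 3.10% of all genes. Before adjustment 2 were higher and 0 lower at p under 0.05 (limma), which 15.6% of all genes reached. The median log2 change of these 9 genes was -0.0067. Whether they differ from the set was not tested. Their changes ran from -0.06 for Ptprc, the CD45 gene of leukocytes, to 0.28 for Ptprv. Ptprn2, a protein of secretory vesicles, had 6.41, 6.61 and 6.42 with fibrinogen and 6.22, 6.15 and 6.24 in controls, which gave a change of 0.28 ± 0.08 (SE) at an adjusted p of 0.121 (limma). Its relative Ptprn had a change of 0.09. Ptprv had a change of 0.28 ± 0.10 (SE, adjusted p = 0.183, limma), with a mean of 5.63 with fibrinogen and 5.35 in controls, on either side of the receptor gene percentile. Ptprc and Ptprq (-0.04) lay below it on every array. Ptprh, Ptprt and Ptpru had changes of -0.04, -0.0067 and 0.06. Ptprb and Ptprm were not analysed here.

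None of the 15 measured non-receptor tyrosine phosphatases passed in limma, against 3.10% of all genes. Before adjustment 4 were higher and 1 lower at p under 0.05 (limma), which 15.6% of all genes reached. The median log2 change of the 15 was 0.09. The largest difference was that of Ptpn14, a phosphatase of cell junctions, with 8.00, 8.52 and 8.15 with fibrinogen and 8.62, 8.63 and 8.55 in controls. Its change of -0.38 ± 0.12 (SE) had an adjusted p of 0.171 (limma). Without fibrinogen 2 the change was -0.52 (adjusted p = 0.0162, limma), and without fibrinogen 1 it was -0.265. Without any single array but fibrinogen 2 the adjusted p was 0.32 to 0.39 (limma). All control arrays lay above all fibrinogen arrays, and fibrinogen 2 came closest to them.

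Among 28 measured ligands and outer partners of RPTPs, 2 rose and 2 fell (limma), with a median of 0.02. Over all genes 1.81% rose and 1.29% fell. Before adjustment 4 of the 28 were higher and 7 lower at p under 0.05 (limma), which 15.6% of all genes reached. Ncan, the gene of the chondroitin sulfate proteoglycan neurocan, had 10.09, 9.90 and 10.07 with fibrinogen and 9.10, 9.19 and 9.11 in controls, a rise of 0.89 ± 0.08 (SE, adjusted p = 0.00122, limma) that was called without each array. Mdk, the gene of midkine, a heparin-binding ligand of Ptprz1, rose by 0.67 ± 0.11 (adjusted p = 0.0156, limma). Pleiotrophin, the related ligand (Ptn), had a change of 0.07 that did not pass. Lrfn5, an adhesion molecule of synapses that binds LAR group receptors, fell by 0.70 ± 0.10 (adjusted p = 0.0107), and Cntn6, a contactin that binds Ptprg, fell by 0.56 ± 0.09 (adjusted p = 0.0174, limma). Cntn6 was named after its values were seen. Lrfn5 averaged 5.22 with fibrinogen, below the receptor gene percentile, so the size of its fall is imprecise. The groups did not overlap for any of the 4 called genes, which is likely for genes picked by their limma call. Over all genes the groups did not overlap in 21.3%. The call for Mdk was lost without control 1 or 3 (adjusted p = 0.0557 and 0.0713), for Lrfn5 without control 2 or 3 (0.0557 and 0.0604), and for Cntn6 without fibrinogen 3, control 1 or control 3 (0.0573, 0.0617 and 0.0665, limma). In these fits 1 of the 28 rose without control 1 and control 3, and 1 fell without fibrinogen 3, control 1 and control 2 and 0 without control 3.

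The list of tyrosine kinases and adaptors on which RPTPs act also held the catenin genes Ctnnb1, Ctnnd1 and Jup and the connexin gene Gja1. Of its 16 measured genes, 2 fell and 0 rose (limma), against 1.29% and 1.81% of all genes. Before adjustment 4 were lower and 2 higher at p under 0.05 (limma), and the median was 0.0083. Fyn, the Src family kinase of myelinating cells, had 10.67, 10.63 and 10.75 with fibrinogen and 11.06, 11.15 and 11.11 in controls, a fall of 0.42 ± 0.07 (SE, adjusted p = 0.0161, limma). Src, Yes1 and Lyn had changes of 0.05, 0.0067 and 0.04 that did not pass. Pdgfra, the PDGF receptor that marks OPCs, fell by 0.40 ± 0.08 (adjusted p = 0.0415). The call for Fyn was lost without fibrinogen 1 (adjusted p = 0.0563), control 1 (0.0544), control 2 (0.0900) or control 3 (0.0810, limma), and that for Pdgfra without any array but fibrinogen 3 (0.0628 to 0.159). As a result 0 of the 16 fell without fibrinogen 1 or any control array, and 1 fell without fibrinogen 2. Without fibrinogen 3, 1 of them rose, the growth factor receptor gene Met, named after its values were seen (change 0.53, adjusted p = 0.0224, limma; 0.42 and 0.0665 with all arrays). Met averaged 5.41 in controls, below the receptor gene percentile, so the size of its change is imprecise.

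The further lists held no called gene in limma, against 3.10% of all genes, and none at an unadjusted p under 0.05, against 15.6%. These were 8 scaffold genes of the LAR group (median 0.10), 7 proteases that process RPTPs (0.03), and 5 MAP kinases that the kinase interaction motif can bind (0.09). The largest difference was 0.23 ± 0.11 (SE) for the liprin gene Ppfia2, 0.15 ± 0.12 for the gamma-secretase gene Aph1a and 0.12 ± 0.09 for the p38 gene Mapk14 (adjusted p = 0.383, 0.634 and 0.587, limma).

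**Figure D4:**
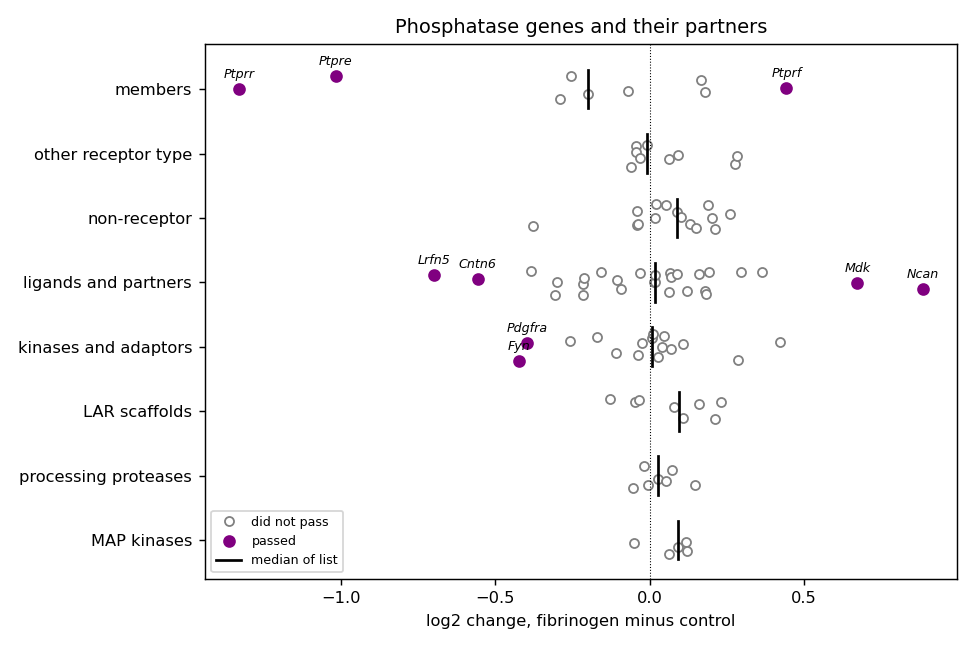
Log2 change (fibrinogen minus control) of each measured gene of the RPTP set and of 7 related lists, 1 row per list, with the list's median as a black bar; purple points passed in limma and are named. The set holds 3 purple points, the ligands and partners 4 and the kinases and adaptors 2, and the other rows hold none.

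The genes whose levels over the 6 arrays ran most like those of Ptprr, by the root-mean-square difference between levels centred on each gene's mean, were Tspan8 (0.14), Prkcq (0.17), Cfap52 (0.18), Ackr3 (0.18) and Dcun1d4 (0.22). Their log2 changes were -1.15, -1.26, -1.28, -1.28 and -0.99, which are a description, since likeness to Ptprr over the same arrays fixed the direction and much of the size. Prkcq is a protein kinase C gene and Ackr3 a chemokine receptor gene. Tspan8 had 3.68, 3.41 and 4.01 with fibrinogen and 4.58, 4.85 and 5.13 in controls, and lay below the receptor gene percentile in both groups.

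Some markers of the cells moved in the same arrays. Of 6 measured OPC markers 4 fell in limma (Pdgfra, Cspg4, Gpr17 and Neu4), against 1.29% of all genes. Olig1 and Sox10 had changes of -0.07 and -0.05 that did not pass. The mean level of the list was 9.89 to 10.10 on fibrinogen arrays and 10.36 to 10.37 on control arrays. Neu4 was called in every fit without 1 array, Gpr17 not without control 2 or 3 (adjusted p = 0.0690 and 0.0713), and Cspg4 in none (0.0670 to 0.179, limma). Of 7 astrocyte markers 2 rose, against 1.81% of all genes. These were Gfap, by 1.24, and Slc1a2, by 0.65, both in every fit without 1 array. Gja1, Aqp4, Slc1a3, Fgfr3 and S100b had changes of -0.04, 0.01, 0.23, 0.30 and 0.46 that did not pass. The astrocyte list averaged 8.03 to 8.11 with fibrinogen and 7.64 to 7.70 in controls. The part of these markers in the changes of Ptprr, Ptpre and Ptprf was not tested. In limma 0 of 9 microglia and leukocyte, 0 of 5 endothelial and 0 of 8 pericyte and fibroblast markers passed, against 3.10% of all genes. At an unadjusted p under 0.05 (limma) these numbers were 0, 0 and 1, against 15.6% of all genes. The averages of these 3 lists were 5.17 to 5.26, 5.17 to 5.26 and 5.57 to 5.69 with fibrinogen and 5.20 to 5.26, 5.14 to 5.21 and 5.67 to 5.75 in controls. Of 10 neuron markers, whose list averaged 7.25 to 7.41 with fibrinogen and 7.32 to 7.33 in controls, 1 fell, Gad2, at a level below the receptor gene percentile. Its call was lost without control 3 (adjusted p = 0.0514, limma).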

How the data were processed

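RMA and limma are named, with no version or role, per the submitters' processing notes. The log2 levels deposited by the authors were therefore read as RMA output; the log2 scale was inferred from the values, with no centring of genes, and the values are rounded to 2 decimals. RMA can compress differences of dim genes, and scanner files were not used here. Of 26312 probe sets, 1206 were blank; of 25106 with values, the platform's annotation gave 14700 a single gene symbol, 275 several and 10131 none. Symbols were checked through Entrez IDs against RefSeq (GRCr8), where 14672 matched and 0 changed. The probe set with the highest mean was used per gene (13949 genes, 480 with several probe sets).

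Groups came from the sample titles, and each array's column was matched by accession. Tests were run gene by gene in limma 3.58.1 under R 4.3.3 (lmFit, eBayes, two-sided, fibrinogen minus control, no covariates), with Benjamini-Hochberg adjustment over all genes and a threshold of 0.05; the fit was tested on simulated data. SDs are over 3 arrays, SEs are moderated, and precision is limited by the 6 arrays. Differences between gene pairs used exact permutation in scipy 1.17.1. Alternatives were median centring, leaving out dim genes, array weights, an intensity trend with robust moderation, the replicate number as a block, another probe set, and leaving out each array.

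The members and lists were chosen with earlier results of these data known. Named genes were the members, the other RPTP genes, up to 3 called genes per list with the largest change (or the largest if none was called), and the 5 genes most like the member with the largest change. The pairs, the promoter windows, the motifs and the further genes were added after values were seen. The lists share Pdgfra, Pdgfrb, Kdr, Gja1, Ptprb, Ptprc and Ptprn. Promoter sequences are RefSeq's, cut to the 250 bases before each start.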

Additional observations from a re-analysis of the deposited data

How the results depend on the processing

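Median centring, leaving out dim genes, array weights, an intensity trend with robust moderation, the replicate block, the probe set with the largest spread, and leaving out each array gave 12 alternatives. The log2 changes of the 9 RPTP genes could move only with median centring, array weights or fewer arrays, and kept their sign in these 8 fits. Over all 12, Ptprr and Ptpre stayed past the threshold (highest adjusted p 0.0127 and 0.00387, limma), and Ptprf lost its call only in the 3 fits without 1 array given above. The number of RPTP genes higher was 0 to 1 and the number lower 2 without 1 array. Over all genes, leaving out 1 array gave 96 to 263 higher and 55 to 173 lower, and array weights 383 and 276. Among ligands and partners 4 rose without dim genes, with array weights and with the intensity trend (Sdc3 and Il1rap joined Ncan and Mdk), and the intensity trend also gave 4 lower (with Slitrk5 and Cntn1); without 1 array 1 to 2 rose and 0 to 2 fell. In the list of kinases and adaptors 2 genes rose without dim genes (Met and the catenin gene Jup) and 1 with array weights (Jup). In that list 1 fell with the replicate block, and without 1 array 0 to 1 rose and 0 to 2 fell. With array weights, 1 non-receptor phosphatase fell (Ptpn14), and 0 to 1 without 1 array. The cause of these moves was not tested.

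The replicate numbers were not shown to pair the samples: deviations from the group mean correlated at 0.03, 0.02 and 0.01 for same-numbered arrays, although each array correlated best with its own number. With the replicate block 195 genes were higher and 120 lower, Ptprf had an adjusted p of 0.0498, and Pdgfra and Cspg4 were not called (0.0770 and 0.0895, limma). Median centring gave 232 higher and 210 lower. The number of arrays and, for genes near the receptor percentile, their dim signal limit what could be called.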
